A study of Homo sapiens with 42 samples.

Results

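The comparison described here set neil2 cells against wild-type (wt) cells of the human line HAP1, both grown with BSO, and it used 6 of the 42 RNA-seq libraries of the series. The 3 neil2 libraries are named rep11.1, rep11.2 and rep12, and the 3 wt libraries are named 1.1, 1.3 and p1, which are the wt BSO libraries whose names carry no letter. The libraries were chosen by genotype, treatment and name alone, and no expression value entered the choice. The 2 groups carried the genotypes neil2 and wt, and both were given 200 µM BSO for 48 h, with treatment begun after 4 h. Matching neil2 and wt libraries kept in media alone for the same 48 h, 3 of each and under the same 6 names, are given beside the BSO values. The titles number the neil2 libraries as biological replicates and give the unlettered wt libraries a name alone. The labels do not give whether neil2 rep11.1 and rep11.2, whose names share a number, come from the same clone. Nor do they give the kind of mutation. A p-value here sets a difference against the spread between libraries within groups, estimated over all 42 libraries of the series. It cannot be read as a measure of the spread between clones. The comparison asks which stress-response genes ended lower or higher in neil2 cells than in wt cells after glutathione synthesis was blocked.

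HAP1 is a near-haploid line derived from a chronic myeloid leukaemia and carries the BCR-ABL1 fusion. NEIL2 is a DNA glycosylase that removes oxidised bases as the opening step of base excision repair, with NEIL1 and NEIL3 as its closest relatives. BSO, buthionine sulfoximine, blocks glutamate-cysteine ligase and with it the making of glutathione, the main soluble thiol of cells. Cells short of glutathione are known to answer through NRF2, a transcription factor that is released from its inhibitor KEAP1 and turns on antioxidant genes, and through ATF4, a transcription factor of the integrated stress response that turns on amino acid supply. Loss of glutathione also disables the lipid peroxidase GPX4 and so opens the way to ferroptosis, a death driven by iron and lipid peroxidation.

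The 6 libraries held 29.9 M to 30.7 M reads assigned to genes (M for mega), and 17905 to 18135 named genes had reads in each. BCR, ABL1 and VIM, which HAP1 cells should express, were present in all 6, with BCR between 721 and 744 in neil2 and between 778 and 833 in wt, in the authors' normalized read counts. Of 10 blood-cell markers 6 were in the table and their sum was 164 to 821 in neil2 and 1059 to 1340 in wt, with TAL1, a factor of blood stem cells, at 79 to 694 in neil2 and at 991 or more in wt, while PTPRC and GATA1 were at or near 0 in both groups. In wt the sum was largely TAL1, and 2 other members lay the other way: CD34 was at 15.6 to 141 in neil2 and 4.95 to 21.6 in wt, and LYL1 at 58.4 to 69.1 in neil2 and 47.5 to 54.5 in wt. The sum of the 7 epithelial and neural markers was 33260 to 40375 in neil2 and 30510 to 34044 in wt. It was largely SOX2, whose ranges overlapped. KRT8 and NES were higher in every neil2 library than in any wt library, and EPCAM and PAX6 were lower. Their part in the results was not tested. Reads from mitochondrial genes made up 2.81% to 4.66% of the neil2 libraries and 2.64% to 4.13% of the wt libraries. On the first principal component of the 6 BSO libraries (59.8% of the variance) neil2 rep11.1 and rep11.2 lay at 41.27 and 48.75, neil2 rep12 lay at -11.21, and the wt libraries lay between -29.57 and -24.52. The second component (20.5%) held neil2 rep12 at -41.8 apart from the other 5, so the 3 neil2 libraries did not form 1 tight group.

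NEIL2 itself, a gene on chromosome 8, was lower in neil2 cells and was not lost at the RNA level. Its normalized read count was 253, 239.9 and 281 in neil2 rep11.1, rep11.2 and rep12 under BSO, against 554, 552 and 507 in wt 1.1, 1.3 and p1 (log2 difference -1.06 ± 0.09, limma adjusted p = 1.54e-09, with ± for the SE here and throughout). Every neil2 library lay below every wt library. In media the values were 306, 299.8 and 328 in neil2 and 487, 613 and 561 in wt (log2 difference -0.82 ± 0.09, limma adjusted p = 7.86e-07). RNA level does not show whether the transcript still makes protein, so this check bears on the labels only as far as the lower level goes. NEIL1 had 559, 592 and 482 in neil2 and 298, 381 and 293 in wt (log2 difference 0.75 ± 0.18, limma adjusted p = 0.00435). It was also higher in media (0.66 on the log2 scale, limma adjusted p = 0.0142). The neil2 libraries thus lay above these 3 wt libraries in NEIL1, but the 4 lettered wt BSO libraries, which were not part of the comparison, read 783 to 931 for NEIL1 and 338 to 378 for NEIL2. NEIL3 had 794, 733 and 764 in neil2 and 666, 716 and 695 in wt and did not pass the test (log2 difference 0.14 ± 0.11, limma adjusted p = 0.424).

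Across all 14331 named genes with a mean normalized count of 10 or more, 1058 were higher in neil2 than in wt under BSO (7.38%) and 1208 were lower (8.43%), at a limma adjusted p under 0.05 (15.8% in either direction). Most differences were small: the median log2 difference was 0.34 among the genes called higher and -0.37 among those called lower, and 91 and 249 of them differed 2-fold or more. In bulk RNA, a change in the number of cells of a kind and a change in RNA per cell cannot be told apart. The neil2 and wt BSO libraries did not overlap in 4894 of the 14331 genes (34.1%), called or not. This held for 975 of the 1058 genes called higher and for 1086 of the 1208 called lower. A lack of overlap, where given for a single gene, therefore adds little to its call. Which genes pass depends on the libraries. Without neil2 rep11.2 there were 402 higher and 430 lower, without wt p1 489 and 533, without neil2 rep11.1 540 and 688, without wt 1.1 698 and 806, and with neil2 rep12 as the lone neil2 library, which is then assumed to vary like the other groups, 31 and 86. A core of 574 genes (263 higher, 311 lower) passed whichever of the 6 was left out.

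The differences also followed the base composition of the transcripts. In the tercile of genes with the lowest GC content (median 40.3%) 678 were higher and 133 lower, with a median log2 difference of 0.097. In the tercile with the highest (median 59.5%) 119 were higher and 789 lower, with a median of -0.100. The gap between the highest and the lowest tercile was -0.23, -0.15 and -0.23 in neil2 rep11.1, rep11.2 and rep12 under BSO, against -0.03, -0.01 and 0.04 in wt 1.1, 1.3 and p1. All 3 neil2 BSO libraries were therefore below the 3 wt BSO libraries in this measure. The lettered wt BSO libraries, which were not part of the comparison, lay at 0.15 to 0.29. Libraries of the same genotype and treatment thus also differed in this measure. In media the gap was 0.00, 0.10 and 0.00 in neil2 and -0.09, -0.05 and 0.14 in wt, and these overlapped. A smooth trend in GC content and transcript length was removed from each library and the test was run again. This left 920 genes higher and 693 lower, with 1235 of the calls shared with the values as deposited. Each gene and list is given as deposited, and where a named gene under BSO was no longer called with the trend removed, that is stated with it. The part of GC content in the single differences was not tested beyond this.

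**Figure D1:**
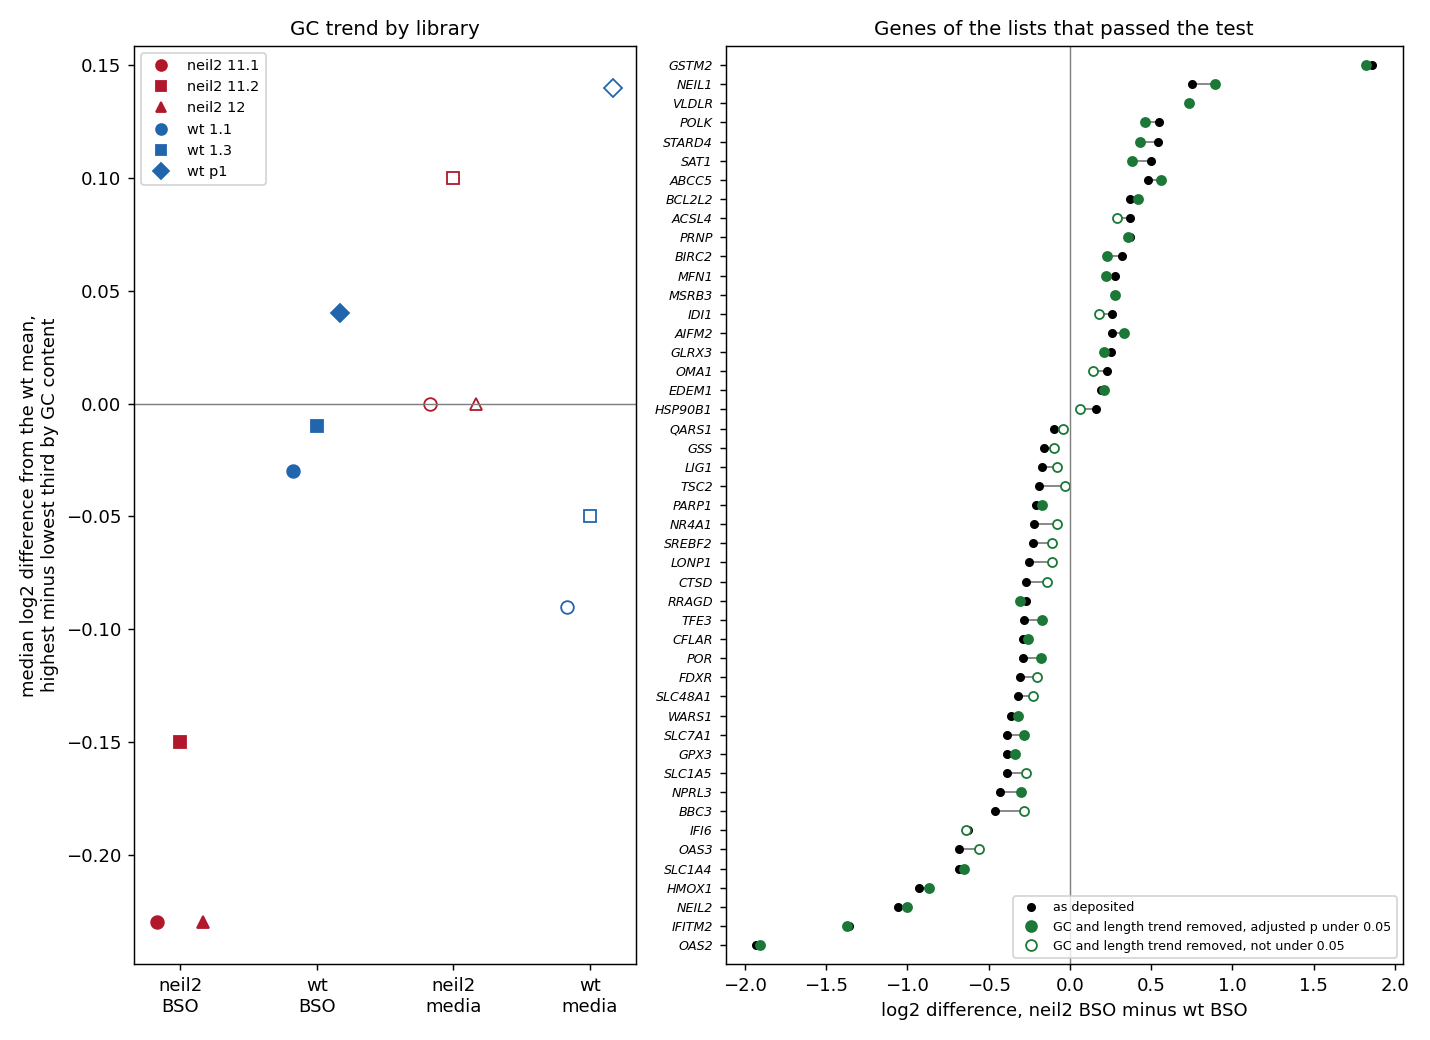
Left: for each library, the median log2 difference from the wt mean of its treatment in the highest GC tercile minus that in the lowest, by group (filled points BSO, open points media). Right: the log2 difference, neil2 BSO minus wt BSO, of named list genes that passed the test, as deposited (black) and with the GC and length trend removed (green, filled where adjusted p stays under 0.05). The neil2 BSO libraries lie at -0.23 to -0.15, below the wt BSO libraries at -0.03 to 0.04, and the values of SLC1A5, BBC3 and TSC2 move toward 0. CGAS, at -4.86, and VDAC3, at 0.16, are not drawn.

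The stress-response genes were read through 20 lists that held 441 tested genes in all. Of these, 21 were higher (4.76%) and 30 lower (6.8%), both below the shares among all genes tested (7.38% and 8.43%). The counts of each list below are to be read beside the same all-gene shares. The median log2 difference of the lists ran between -0.24 and 0.05, beside 0.01 for all genes. The plot of list medians shows where the 6 libraries fall.

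**Figure D2:**
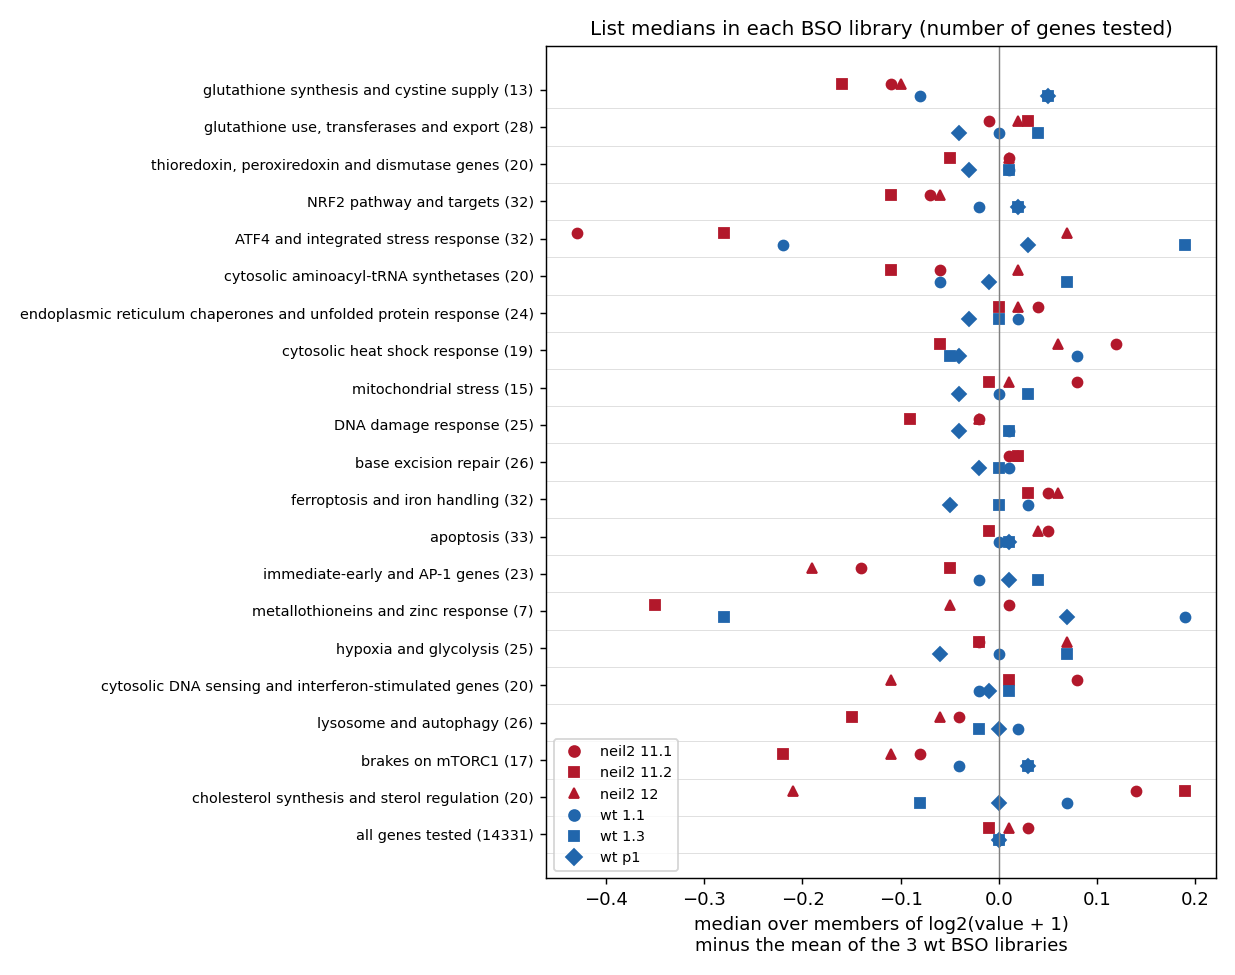
Median over the members of each list of log2(value + 1) minus the mean of the 3 wt BSO libraries, for each BSO library (red neil2, blue wt), with the number of genes tested in brackets. The ATF4 list lies at -0.43 and -0.28 in neil2 rep11.1 and rep11.2 and at 0.07 in neil2 rep12, against -0.22 to 0.19 in wt, while the medians of all genes lie within 0.03 of 0.

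Glutathione synthesis and cystine supply was lower at 3 of its 13 tested genes and higher at none, with a median log2 difference of -0.16 and 9 of 13 negative. The genes that passed were transporters of neutral amino acids and glutathione synthetase. SLC1A4, a carrier of alanine, serine and cysteine, had 1234, 1273 and 2169 in neil2 and 2169.8, 2582 and 2501 in wt (log2 difference -0.68 ± 0.17, limma adjusted p = 0.00615). SLC1A5, the main glutamine carrier, had 11966, 12291 and 15062 in neil2 and 16140.2, 17614 and 17485 in wt (log2 difference -0.39 ± 0.10, limma adjusted p = 0.00909). For both carriers neil2 rep11.1 and rep11.2 were lowest. Neil2 rep12 lay closest to the lowest wt library, level with it for SLC1A4 (2169 and 2169.8) and below it for SLC1A5. With neil2 rep12 alone against wt the log2 difference of SLC1A4 was -0.15. SLC1A4 did not pass without neil2 rep11.1 or neil2 rep11.2 (limma adjusted p up to 0.0604). Nor did it pass with neil2 rep11.1 and rep11.2 averaged (limma adjusted p = 0.0576) or with only the compared libraries in the fit (limma adjusted p = 0.0684). SLC1A5 did not pass without neil2 rep11.1 or neil2 rep11.2 (limma adjusted p up to 0.0631), and neither did it with the GC trend removed (-0.27, limma adjusted p = 0.0716). GSS, which joins glycine to gamma-glutamylcysteine, had 2089, 2023 and 1939 in neil2 and 2177, 2286 and 2298 in wt (log2 difference -0.16 ± 0.05, limma adjusted p = 0.0254). It too did not pass with the trend removed (-0.10, limma adjusted p = 0.182) or without neil2 rep11.2, neil2 rep12, wt 1.3 or wt p1 (limma adjusted p up to 0.104).

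The enzymes and the cystine carrier on which BSO bears most directly did not pass the test. GCLC, the catalytic subunit of glutamate-cysteine ligase and the target of BSO, had 2128, 1713 and 1718 in neil2 and 1943, 1782 and 2067 in wt (log2 difference -0.06 ± 0.11, limma adjusted p = 0.736). GCLM, its modifier subunit, had 1627, 1554 and 1619 in neil2 and 1651, 1464 and 1685 in wt (log2 difference 0.00 ± 0.10, limma adjusted p = 0.991). SLC7A11, the cystine and glutamate exchanger, had 4117, 4459.7 and 5486 in neil2 and 3709, 4848 and 4591 in wt (log2 difference 0.10 ± 0.19, limma adjusted p = 0.784). The groups overlapped in all 3 genes. In media GCLM had 1097, 1032 and 1126 in neil2 and 1156, 1041 and 1148 in wt, and SLC7A11 had 2390.5, 2112 and 2965 in neil2 and 2357, 2893 and 1996 in wt. Every BSO value of these 2 genes, in either genotype, lay above every media value.

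Among 28 genes of glutathione use, transfer and export 3 were higher and 1 lower (median -0.01). GSTM2, a mu-class glutathione transferase, had 201, 290.3 and 94.5 in neil2 and 35.4, 63.4 and 49.5 in wt (log2 difference 1.86 ± 0.34, limma adjusted p = 0.000726). Each neil2 library lay above each wt library, neil2 rep12 by the least. In media the log2 difference was 2.11 (limma adjusted p = 0.000215). ABCC5, an exporter of organic anions and glutathione conjugates, had 1361, 1445 and 1149 in neil2 and 934, 925 and 966 in wt (log2 difference 0.48 ± 0.09, limma adjusted p = 0.000901), although the lettered wt BSO libraries read 1612 to 1753, above neil2. GLRX3, a glutaredoxin of iron-sulfur protein assembly, was higher (0.25 ± 0.07, limma adjusted p = 0.0123). GPX3, the secreted glutathione peroxidase, was lower (-0.39 ± 0.12, limma adjusted p = 0.0254), with neil2 values of 1384, 1826 and 1997 and wt values of 2044, 2375 and 2330.5. GLRX3 did not pass without neil2 rep11.2 or wt p1 (limma adjusted p up to 0.103), and GPX3 did not without neil2 rep11.1, wt 1.3 or wt p1 (limma adjusted p up to 0.231, with -0.23 at the highest). GPX4, the enzyme that reduces lipid peroxides with glutathione, had 5589, 6418 and 5782 in neil2 and 6393, 6332 and 6078 in wt (log2 difference -0.08 ± 0.09, limma adjusted p = 0.562). GSR, which regenerates reduced glutathione, had 5494, 5131 and 4792 in neil2 and 4956, 5045 and 4953 in wt (log2 difference 0.04 ± 0.09, limma adjusted p = 0.804). Neither separated the groups.

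The thioredoxin, peroxiredoxin and dismutase list, the parallel thiol system, had 1 gene higher and none lower of 20 (median -0.02). That gene was MSRB3, a methionine sulfoxide reductase, with 1057, 915 and 830.5 in neil2 and 810.1, 706 and 785 in wt (log2 difference 0.28 ± 0.09, limma adjusted p = 0.0278). The call was lost without neil2 rep11.1, neil2 rep11.2, wt 1.3 or wt p1 (limma adjusted p up to 0.208). TXNRD1, the cytosolic thioredoxin reductase, had 16696, 14453 and 15730.3 in neil2 and 14745, 14679 and 14808 in wt (log2 difference 0.08 ± 0.17, limma adjusted p = 0.79). SRXN1, which restores overoxidised peroxiredoxins, had 109, 88.9 and 89.7 in neil2 and 95.4, 107 and 127 in wt (log2 difference -0.19 ± 0.14, limma adjusted p = 0.372). Both overlapped between the groups.

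HMOX1 had the larger difference of the 2 NRF2 list genes that passed. The gene (GRCh38 chromosome 22, 35381096 to 35394207) encodes heme oxygenase 1, which splits heme into biliverdin, carbon monoxide and iron, and its RNA is a common readout of oxidative and electrophilic stress. Its normalized read count was 1177, 1005 and 1595 in neil2 and 2181, 2206 and 2715 in wt under BSO (log2 difference -0.93 ± 0.19, limma adjusted p = 0.00146). All 3 neil2 libraries lay below the lowest wt library. In media the counts were 351, 400.4 and 504 in neil2 and 457, 523 and 571 in wt (log2 difference -0.32 ± 0.19, limma adjusted p = 0.284). The level under BSO was above that in media in both genotypes. The lower level under BSO passed whichever library was left out and with the GC trend removed (-0.87, limma adjusted p = 0.00449). With neil2 rep12 alone against wt the log2 difference was -0.56 and did not pass (limma adjusted p = 0.335). The lettered wt BSO libraries read 2126 to 4036, also above all 3 neil2 libraries.

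The other NRF2 genes showed few calls. Of 32 tested genes 2 were lower, none was higher, and the median was -0.07 with 23 negative, against 6903 negative of 14331 among all genes. The other gene was SLC48A1, a heme transporter, with 540.5, 711 and 608 in neil2 and 748, 779 and 778 in wt (log2 difference -0.32 ± 0.11, limma adjusted p = 0.0471). It did not pass with the trend removed (limma adjusted p = 0.124) or without neil2 rep11.1, neil2 rep12, wt 1.1, wt 1.3 or wt p1 (limma adjusted p up to 0.247, with -0.22 at the highest). NQO1, the quinone reductase most often used as an NRF2 readout, had 6315, 6044 and 5846 in neil2 and 5452, 6143 and 5889 in wt (log2 difference 0.06 ± 0.14, limma adjusted p = 0.815). In media NQO1 had 3454, 3453 and 2803 in neil2 and 2177, 2406 and 2456 in wt (log2 difference 0.46 ± 0.14, limma adjusted p = 0.0306). The genotypes were separate in media and overlapped under BSO.

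**Figure D3:**
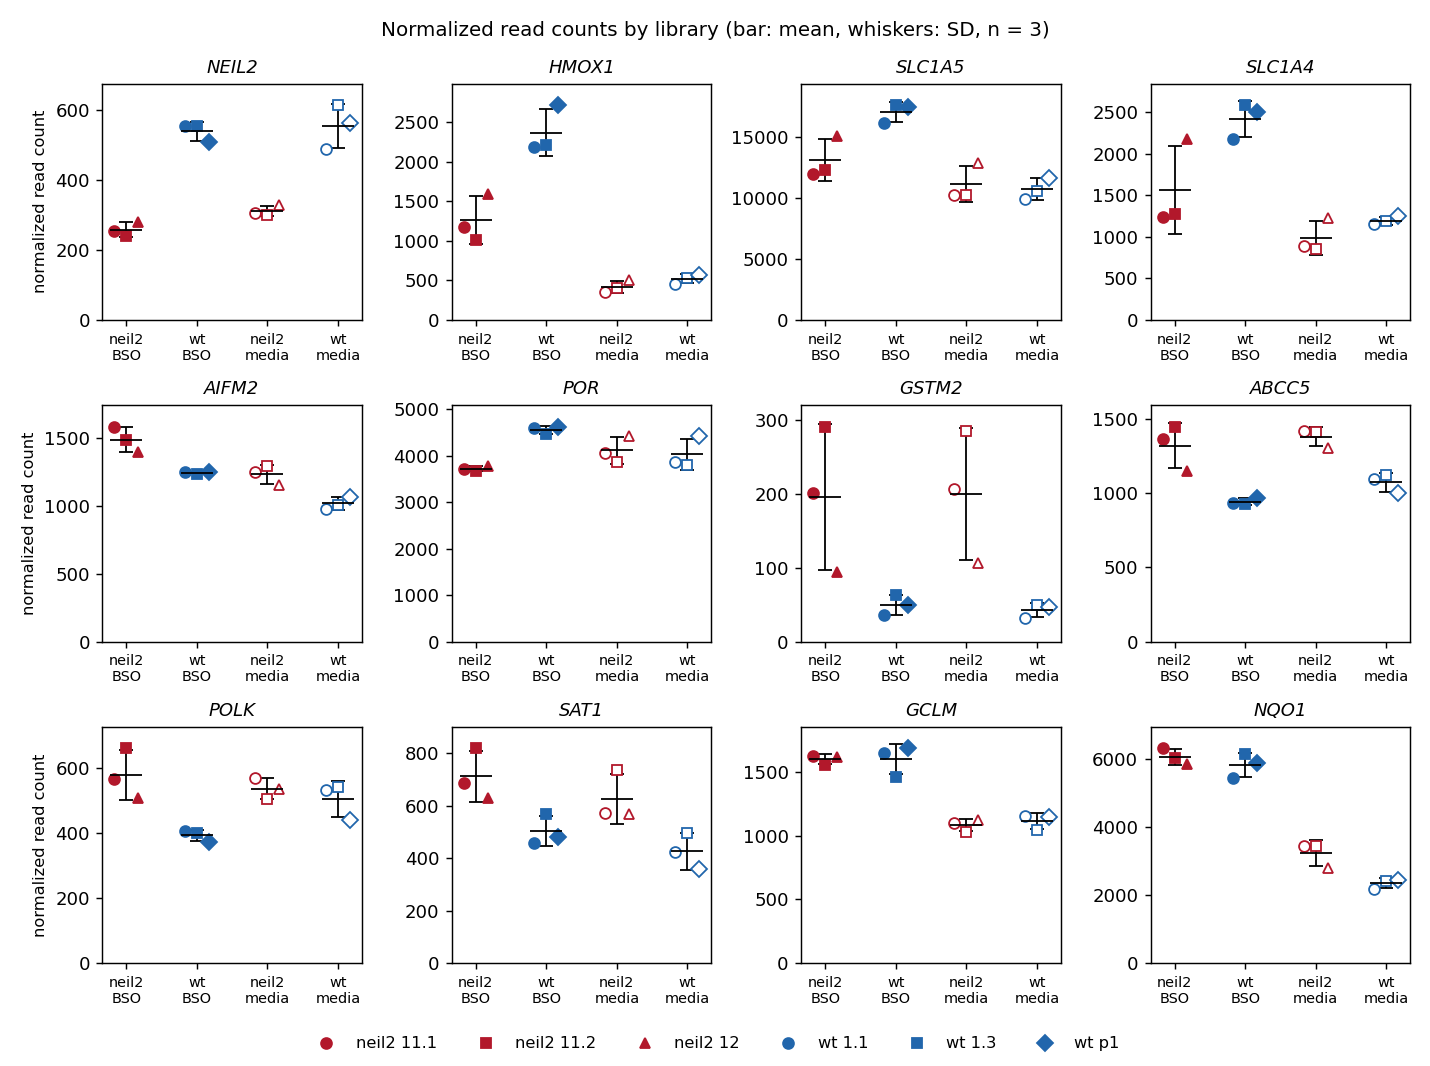
Normalized read counts of 12 genes in the neil2 and wt libraries under BSO (filled) and in media (open), with 1 symbol per library name, a bar at the mean and whiskers of 1 SD (n = 3). HMOX1 lies between 1005 and 1595 in neil2 BSO and between 2181 and 2715 in wt BSO, GCLM overlaps between the genotypes in both treatments, and NQO1 separates them in media alone.

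The ATF4 and integrated stress response list had the lowest median of the lists, -0.24 over 32 genes with 27 negative, yet only 1 gene passed as lower and 1 as higher. The median followed the library: it was -0.43 in neil2 rep11.1, -0.28 in rep11.2 and 0.07 in rep12, against -0.22 in wt 1.1, 0.19 in wt 1.3 and 0.03 in wt p1. Neil2 rep12 therefore lay inside the wt range. With neil2 rep12 as the lone neil2 library the median was 0.07 and 12 of 32 were negative, without neil2 rep12 it was -0.37 and 9 genes were lower, and with the GC trend removed it was -0.16 with 26 negative.

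ATF4, DDIT3, TRIB3, CHAC1 and ASNS, the genes most used to read this response, did not pass. TRIB3, a pseudokinase induced by ATF4 and DDIT3, had 1944, 2263 and 2705 in neil2 and 2549, 3640.3 and 3269 in wt (log2 difference -0.45 ± 0.18, limma adjusted p = 0.0788). CHAC1, a glutathione-degrading cyclotransferase, had 888, 1322 and 1719 in neil2 and 1157, 2232 and 1704 in wt (log2 difference -0.37 ± 0.34, limma adjusted p = 0.486). ASNS, asparagine synthetase, had 86.6, 111 and 129.6 in neil2 and 67.8, 157 and 107 in wt (log2 difference 0.04 ± 0.28, limma adjusted p = 0.94). In all 3 the groups overlapped, with wt 1.1 the lowest wt library and neil2 rep11.1 the lowest neil2 library in each. ATF4 itself had 21471, 22130.5 and 24435 in neil2 and 21587, 25380.0 and 23090.2 in wt (log2 difference -0.04 ± 0.08, limma adjusted p = 0.78). DDIT3, which encodes the factor CHOP, had 447, 609 and 596 in neil2 and 469, 687 and 601 in wt (log2 difference -0.08 ± 0.19, limma adjusted p = 0.808).

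The member that passed as lower was SLC7A1, a carrier of arginine and lysine, with 6891, 6649.5 and 8520.2 in neil2 and 8694, 9858 and 10176 in wt (log2 difference -0.39 ± 0.10, limma adjusted p = 0.0101). The member that passed as higher was VLDLR, the very-low-density lipoprotein receptor, with 1786, 1899 and 1679.5 in neil2 and 1006, 1237 and 999 in wt (log2 difference 0.73 ± 0.22, limma adjusted p = 0.0239). Both separated the groups. In media VLDLR also passed (0.77, limma adjusted p = 0.0237) and SLC7A1 did not (-0.29, limma adjusted p = 0.0651). Under BSO SLC7A1 did not pass without neil2 rep11.1, neil2 rep11.2 or wt p1 (limma adjusted p up to 0.082), nor VLDLR without neil2 rep11.1, neil2 rep11.2, wt 1.1 or wt p1 (limma adjusted p up to 0.0935). Of 20 cytosolic aminoacyl-tRNA synthetases, many of them ATF4 targets, 2 were lower and none higher (median -0.07). WARS1, which charges tryptophan, had 7324, 7586 and 8938 in neil2 and 8919, 10755 and 10964 in wt (log2 difference -0.36 ± 0.10, limma adjusted p = 0.0139). Neil2 rep12 lay just above wt 1.1, and the gene did not pass without neil2 rep11.1, neil2 rep11.2, wt 1.3 or wt p1 (limma adjusted p up to 0.0875). QARS1, which charges glutamine, was lower by a small amount (-0.10 ± 0.04, limma adjusted p = 0.0449) that did not pass with the trend removed (limma adjusted p = 0.482) or without neil2 rep11.2, neil2 rep12, wt 1.1, wt 1.3 or wt p1 (limma adjusted p up to 0.178).

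Promoter stretches of 4 genes are printed for their matches to elements through which these pathways are known to act. The RNA of these genes did not separate the genotypes. The 250 bases upstream of the RefSeq start (GRCh38.p14) were searched on both strands for TGATGNAA, the response element shared by CCAAT/enhancer-binding protein and ATF, and for TGACNNNGC, the core of the antioxidant response element bound by NRF2. The matched letters are in capitals in the stretches, which are written 5′ to 3′ on the gene's strand: CHAC1 at chr15:40953232-40953299 (plus strand gene, with the motif on the opposite strand), ASNS at chr7:97872439-97872506 (minus strand), GCLM at chr1:93909431-93909494 (minus strand gene, motif on the opposite strand) and TXNRD1 at chr12:104215650-104215718 (plus strand).
CHAC1: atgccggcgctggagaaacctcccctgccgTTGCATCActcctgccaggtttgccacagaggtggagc
ASNS: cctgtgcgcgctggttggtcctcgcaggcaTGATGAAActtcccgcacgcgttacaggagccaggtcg
GCLM: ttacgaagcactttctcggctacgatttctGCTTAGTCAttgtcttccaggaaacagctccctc
TXNRD1: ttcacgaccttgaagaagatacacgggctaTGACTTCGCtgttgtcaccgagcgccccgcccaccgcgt
The match began 209, 68, 34 and 99 bases upstream of the start of CHAC1, ASNS, GCLM and TXNRD1, counted to its 5′-most letter on the gene's strand. TGATGNAA was in 1104 of 35116 promoters of the table (3.14%), in 3 of 27 promoters of the ATF4 list that had an entry and in 0 of 27 of the NRF2 list. TGACNNNGC was in 3830 of 35116 promoters (10.9%), in 4 of 27 of the NRF2 list (14.8%) and in 3 of 27 of the ATF4 list. A match is a description of letters and does not show that a factor binds there.

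In the ferroptosis and iron list 5 of 32 genes were higher and 2 lower (median 0.03), beside 7.38% higher and 8.43% lower among all genes tested. A gene that favours ferroptosis and a gene that protects from it were both among those higher. SAT1, which acetylates spermidine and spermine and is linked to lipid peroxidation, had 688, 818 and 631 in neil2 and 458, 567 and 481 in wt (log2 difference 0.50 ± 0.12, limma adjusted p = 0.00587). AIFM2, also called FSP1, which keeps coenzyme Q reduced and protects against ferroptosis without glutathione, had 1581, 1484 and 1396 in neil2 and 1247, 1237 and 1247 in wt (log2 difference 0.26 ± 0.07, limma adjusted p = 0.0157). PRNP, the prion protein, had 3207, 3156 and 3009 in neil2 and 2484, 2521 and 2233 in wt (log2 difference 0.37 ± 0.09, limma adjusted p = 0.00741). The groups did not overlap in these 3 genes, and all 3 were higher in neil2 in media too (0.56 for SAT1, 0.28 for AIFM2 and 0.42 for PRNP, limma adjusted p = 0.00404, 0.0134 and 0.00457). ACSL4, which loads polyunsaturated fatty acids into membranes that can be peroxidised, was also higher (0.37 ± 0.11, limma adjusted p = 0.0189), but not with the trend removed (limma adjusted p = 0.0625). VDAC3, a mitochondrial outer membrane channel, was higher by 0.16 on the log2 scale (limma adjusted p = 0.0332), but was not called with the trend removed or without any library except wt 1.1 or neil2 rep12.

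POR, the cytochrome P450 oxidoreductase that feeds electrons to lipid peroxidation, was lower, with 3722, 3677 and 3785 in neil2 and 4594, 4464 and 4628 in wt (log2 difference -0.29 ± 0.07, limma adjusted p = 0.00338). The neil2 values were tight and lay below every wt value, and in media the 2 genotypes overlapped, with a log2 difference of 0.03 (limma adjusted p = 0.797). POR passed whichever library was left out and with the trend removed (-0.18, limma adjusted p = 0.0303). HMOX1, which releases iron from heme, was the other member that was lower. TFRC, the transferrin receptor, had 15437, 14165 and 16569.5 in neil2 and 15018, 14418 and 14708 in wt and did not pass (log2 difference 0.06 ± 0.10, limma adjusted p = 0.723). Calls were lost for SAT1 without neil2 rep11.2 (limma adjusted p up to 0.0649), for PRNP without wt p1 (up to 0.0567), and for AIFM2 without neil2 rep11.1, neil2 rep11.2 or wt p1 (up to 0.0954). ACSL4 was lost without neil2 rep11.1, neil2 rep11.2 or wt p1 (limma adjusted p up to 0.132).

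Of 33 apoptosis genes 3 were higher and 2 lower (median 0.04), and the 2 that passed in every fit with a library left out were genes of survival proteins that rose. BCL2L2, which encodes the survival protein BCL-W, had 950.2, 947 and 911 in neil2 and 700.0, 729 and 746 in wt (log2 difference 0.37 ± 0.08, limma adjusted p = 0.00337). BIRC2, which encodes the inhibitor of apoptosis cIAP1, had 1413, 1491 and 1330.5 in neil2 and 1151, 1178 and 1051 in wt (log2 difference 0.32 ± 0.08, limma adjusted p = 0.00426). In both genes every neil2 library lay above every wt library, and both passed with the trend removed (0.42, limma adjusted p = 0.00111, and 0.23, limma adjusted p = 0.0375). BBC3, the death gene PUMA, was lower, with 284, 265 and 290.5 in neil2 and 346, 411 and 401 in wt (log2 difference -0.46 ± 0.13, limma adjusted p = 0.0163). It did not pass with the trend removed (limma adjusted p = 0.163) or without neil2 rep11.2, wt 1.3 or wt p1 (limma adjusted p up to 0.0795). CFLAR, which blocks death receptor signalling, had 622, 697 and 908 in neil2 and 865, 872 and 964 in wt (log2 difference -0.29 ± 0.09, limma adjusted p = 0.0234). It rested on neil2 rep11.1 and rep11.2: with neil2 rep12 alone the log2 difference was 0.01 (limma adjusted p = 0.977), and of the fits that left out 1 library it was lost without neil2 rep11.1, neil2 rep11.2 or wt p1 (limma adjusted p up to 0.221, with -0.18 at the highest).

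Among 25 genes of the DNA damage response 1 was higher and 3 lower (median -0.01). POLK, a polymerase that copies past damaged bases, had 567, 662 and 509.8 in neil2 and 407, 400.4 and 373 in wt (log2 difference 0.55 ± 0.10, limma adjusted p = 0.000909). Every neil2 library lay above every wt library. The call held whichever library was left out and with the trend removed (0.46, limma adjusted p = 0.00653), and in media POLK did not pass (0.09, limma adjusted p = 0.613). FDXR, a mitochondrial reductase, was lower (-0.31 ± 0.11, limma adjusted p = 0.0431), but not with the trend removed (limma adjusted p = 0.203) or without neil2 rep11.1, neil2 rep11.2, wt 1.1, wt 1.3 or wt p1 (limma adjusted p up to 0.31, with -0.19 at the highest). BBC3, described with the apoptosis genes, was also lower.

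Of 26 base excision repair genes 1 was higher and 3 lower (median 0.03), and these include NEIL1 and NEIL2. PARP1, which marks DNA breaks with poly(ADP-ribose), had 19445, 17026 and 20470.4 in neil2 and 21178, 21921 and 22546 in wt (log2 difference -0.21 ± 0.05, limma adjusted p = 0.00462). It was also lower in media (-0.19, limma adjusted p = 0.0129), and under BSO it did not pass without neil2 rep11.2 (limma adjusted p up to 0.0828, with -0.13 at the highest). LIG1, the ligase that seals repaired strands, was lower by a small amount (-0.17 ± 0.06, limma adjusted p = 0.0431) that did not pass with the trend removed (limma adjusted p = 0.374) or without neil2 rep11.1, neil2 rep11.2, wt 1.1, wt 1.3 or wt p1 (limma adjusted p up to 0.343, with -0.10 at the highest).

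Lists for other stresses showed few calls. No gene of 19 in the cytosolic heat shock list (median 0.05), of 25 in the hypoxia and glycolysis list (median -0.01) or of 7 tested metallothionein and zinc response genes (median -0.18) passed. The endoplasmic reticulum list had 2 of 24 higher and none lower (median 0.01). These were EDEM1, which sends misfolded proteins to degradation, with 1348, 1362 and 1357 in neil2 and 1175, 1218 and 1172 in wt (log2 difference 0.19 ± 0.05, limma adjusted p = 0.0169), and HSP90B1, an abundant chaperone of the endoplasmic reticulum (0.16 ± 0.05, limma adjusted p = 0.0404), which did not pass with the trend removed (limma adjusted p = 0.448). The mitochondrial stress list had 2 of 15 higher and 1 lower (median 0.05). MFN1, which fuses mitochondria, had 2038, 1863 and 1941 in neil2 and 1672, 1589 and 1541 in wt (log2 difference 0.28 ± 0.08, limma adjusted p = 0.0103). OMA1, a stress-activated protease, was higher by 0.23 ± 0.08 (limma adjusted p = 0.0479), and LONP1, a matrix protease, was lower (-0.25 ± 0.07, limma adjusted p = 0.0221). OMA1 and LONP1 did not pass with the trend removed (limma adjusted p = 0.184 and 0.388). Of 23 immediate-early genes NR4A1, a nuclear receptor of early responses, was lower (-0.22 ± 0.06, limma adjusted p = 0.0162), again not with the trend removed (limma adjusted p = 0.366), and the median was -0.11. EDEM1 was lost without neil2 rep11.2, wt 1.1 or wt p1 (limma adjusted p up to 0.0688), MFN1 without neil2 rep11.1 or wt p1 (up to 0.0587) and NR4A1 without neil2 rep11.1, neil2 rep11.2, wt 1.3 or wt p1 (up to 0.0766). LONP1 was lost without neil2 rep11.1, neil2 rep11.2, wt 1.3 or wt p1 (limma adjusted p up to 0.174), HSP90B1 without any library except wt 1.1 (up to 0.188), and OMA1 in all 6 such fits (up to 0.245).

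Cytosolic DNA sensing and interferon-stimulated genes had 5 of 20 tested genes lower and none higher (median -0.04), among them the largest difference of any list gene that passed. With the trend removed 3 were lower and 1 was higher (median -0.03). The list median was 0.08, 0.01 and -0.11 in neil2 rep11.1, rep11.2 and rep12, against -0.02 to 0.01 in wt. CGAS, the sensor that makes cyclic GMP-AMP from cytosolic DNA, had 1.01, 3.95 and 190.1 in neil2 and 330.3, 400.4 and 352 in wt (log2 difference -4.86 ± 1.01, limma adjusted p = 0.00188). The gene was near absent in neil2 rep11.1 and rep11.2 and at a level below wt in neil2 rep12, which alone against wt gave -0.92 (limma adjusted p = 0.144). OAS2, an interferon-induced synthetase of oligoadenylate, had 41.3, 45.4 and 40.9 in neil2 and 167, 151 and 176 in wt (log2 difference -1.93 ± 0.43, limma adjusted p = 0.00341). IFITM2, an interferon-induced membrane protein, had 25.2, 31.6 and 27.3 in neil2 and 72.8, 65.4 and 82.2 in wt (log2 difference -1.36 ± 0.38, limma adjusted p = 0.0137). In these 2 genes the 3 neil2 libraries were close together and lay below every wt library. OAS3, a relative of OAS2, and IFI6, an interferon-induced mitochondrial protein, were lower, with log2 differences of -0.68 and -0.63 (limma adjusted p = 0.0366 and 0.0434), and neither passed with the trend removed (limma adjusted p = 0.0927 and 0.051). CGAS, OAS2 and IFITM2 were also lower in media (-5.36, -1.59 and -1.13, limma adjusted p = 0.00128, 0.0167 and 0.0474). IFITM2 was lost without neil2 rep11.1 or wt p1 (limma adjusted p up to 0.0613), OAS3 without any library except wt 1.3 (up to 0.197), and IFI6 without any except neil2 rep12 (up to 0.178).

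Of 26 lysosome and autophagy genes 3 were lower and none higher (median -0.08). TFE3, a transcription factor of lysosomal and autophagy genes, had 3941, 3587 and 4093 in neil2 and 4563, 4667 and 4865 in wt (log2 difference -0.28 ± 0.05, limma adjusted p = 0.00103). It passed in every fit with a library left out and with the trend removed (-0.17, limma adjusted p = 0.0396). RRAGD, a Rag GTPase that reports amino acids to mTORC1, was lower (-0.27 ± 0.08, limma adjusted p = 0.0276). CTSD, the lysosomal protease cathepsin D, had 3314, 3446 and 3327 in neil2 and 4146, 3939.6 and 4051 in wt (log2 difference -0.27 ± 0.08, limma adjusted p = 0.0183). RRAGD was lost without neil2 rep11.2, wt 1.1 or wt p1 (limma adjusted p up to 0.277, with -0.15 at the highest), and CTSD did not pass without neil2 rep11.1, wt 1.1 or wt p1 (limma adjusted p up to 0.0638) or with the trend removed (limma adjusted p = 0.171). Of 17 brakes on mTORC1, 2 were lower and none higher (median -0.14), whereas with the trend removed NPRL3 was lower and NPRL2 and TSC1 were higher (median -0.08). NPRL3, a subunit of the GATOR1 complex that holds mTORC1 off when amino acids are short, had 2640.3, 2545 and 2697 in neil2 and 3487, 3378 and 3739 in wt (log2 difference -0.43 ± 0.08, limma adjusted p = 0.000898). It passed in every fit with a library left out and was lower in media too (-0.27, limma adjusted p = 0.0283). NPRL2 and TSC1, also brakes, were not called as deposited. TSC2, another brake, was lower (-0.19 ± 0.05, limma adjusted p = 0.00888), but the difference was -0.03 with the trend removed (limma adjusted p = 0.69), and the call was lost without neil2 rep11.2 or wt p1 (limma adjusted p up to 0.0556).

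Of 20 cholesterol genes 2 were higher and 1 lower (median 0.05), and the neil2 libraries split. The median of the list was 0.14 and 0.19 in neil2 rep11.1 and rep11.2 and -0.21 in neil2 rep12, against -0.08 to 0.07 in wt. STARD4, which moves cholesterol between membranes, had 1159.6, 1304 and 855 in neil2 and 779, 763 and 707 in wt (log2 difference 0.54 ± 0.11, limma adjusted p = 0.0012). Neil2 rep12 lay closest to wt. It passed whichever library was left out and with the trend removed (0.43, limma adjusted p = 0.0132). IDI1, an isomerase of the mevalonate pathway, was higher (0.26 ± 0.08, limma adjusted p = 0.0244) and SREBF2, the transcription factor that drives the pathway, was lower (-0.23 ± 0.07, limma adjusted p = 0.0292). Neither passed with the trend removed (limma adjusted p = 0.135 and 0.297), IDI1 did not pass without neil2 rep11.1, neil2 rep11.2, wt 1.3 or wt p1 (limma adjusted p up to 0.169), and SREBF2 did not without neil2 rep11.1, neil2 rep12, wt 1.3 or wt p1 (limma adjusted p up to 0.117). Without neil2 rep12 the list had 6 genes higher, and with neil2 rep12 as the lone neil2 library its median was -0.21.

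Apart from CGAS, the largest differences lay outside the stress lists. RHOD, a small GTPase of endosomes and the actin cytoskeleton, had 139.9, 128 and 372 in neil2 and no read in any wt BSO library, at least 215-fold higher when 3 reads over the wt group are taken as the limit. CHMP4C, an ESCRT-III subunit that times the final cut of cell division, had 268, 262 and 339 in neil2 and 1.97, 2.97 and 2.97 in wt (log2 difference 6.32 ± 1.38, limma adjusted p = 0.0028). AEBP1, an extracellular matrix protein, had 47.3, 109.6 and 341 in neil2 and 5.9, 11.9 and 5.94 in wt (log2 difference 3.84 ± 0.84, limma adjusted p = 0.00268). TMEM47, a junction protein, had the highest level of these, 6549, 4958 and 7069.8 in neil2 and 702, 522 and 312 in wt (log2 difference 3.65 ± 0.98, limma adjusted p = 0.0111). RHOD and CHMP4C were at or near 0 in wt, AEBP1 and TMEM47 were read at a lower level there, and all 4 were read in all 3 neil2 libraries. DCAF12L2, KCTD11, SELENBP1, COL3A1, AP1M2, RGL3, ANGPTL2 and GJA1 completed the 12 largest rises, at 2.69 to 4.75 on the log2 scale, among them a fibrillar collagen (COL3A1) and the gap junction protein connexin 43 (GJA1). Of the 12 rises 5 were lost in fits that left out 1 library: DCAF12L2 without any except neil2 rep12 (limma adjusted p up to 0.146), AP1M2 without neil2 rep11.1, neil2 rep11.2, wt 1.1 or wt p1 (up to 0.159), COL3A1 without neil2 rep11.1, neil2 rep11.2 or wt p1 (up to 0.0678), GJA1 without wt p1 (up to 0.0876) and TMEM47 without wt p1 (up to 0.0596).

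The 12 largest falls passed in every such fit. With 1 mean per line number (neil2 rep11.1 and rep11.2 averaged) CGAS and SLC1A6 did not pass (limma adjusted p = 0.07 and 0.0819). That fit kept wt 1.1 and wt 1.3 apart, although their names also share a number. With only the compared libraries in the fit CGAS and SLC1A6 did not pass either (limma adjusted p = 0.0689 and 0.0738). Of the rises, DCAF12L2, COL3A1 and AP1M2 did not pass with 1 mean per line number (limma adjusted p = 0.152, 0.0844 and 0.0823). COL3A1 also did not pass with only the compared libraries (limma adjusted p = 0.0604). CNTN1, a neuronal adhesion protein, had 0, 0 and 2.92 in neil2 and 73.7, 92.2 and 122 in wt (log2 difference -5.91 ± 1.33, limma adjusted p = 0.00336). TCEAL8, a relative of an elongation factor, had 0, 0.987 and 0 in neil2 and 81.6, 46.6 and 80.2 in wt (log2 difference -5.76 ± 0.68, limma adjusted p = 1.55e-06). NRG1, the ErbB receptor ligand neuregulin 1, had 2.01, 5.92 and 1.95 in neil2 and 161, 84.2 and 139.7 in wt (log2 difference -4.98 ± 0.83, limma adjusted p = 0.000277). These 3 genes were at or near 0 in all 3 neil2 libraries, where their fitted differences depend on the 1 added before taking the logarithm and are no bound. IL12RB2, a chain of the interleukin 12 receptor, had 7.05, 7.9 and 2.92 in neil2 and 90.4, 115 and 96.1 in wt (log2 difference -3.95 ± 0.25, limma adjusted p = 3.78e-13). BMP2, the bone morphogenetic protein, PSMB8, a subunit of the immunoproteasome, ZNF329, a zinc finger gene, LRFN5, a synaptic adhesion protein, and PLPPR5 were also lower, with log2 differences between -5.58 and -2.88. IRX6, a homeobox gene, and SLC1A6, a neuronal glutamate carrier, resembled CGAS. SLC1A6 had 9.06, 4.94 and 171 in neil2 and 259.5, 247 and 249 in wt, with neil2 rep12 closest to wt (-0.56 alone, limma adjusted p = 0.524). With neil2 rep12 as the lone neil2 library, 7 of the 73 named genes that passed still did: NEIL2, RHOD, AEBP1, TCEAL8, NRG1, IL12RB2 and LRFN5.

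**Figure D4:**
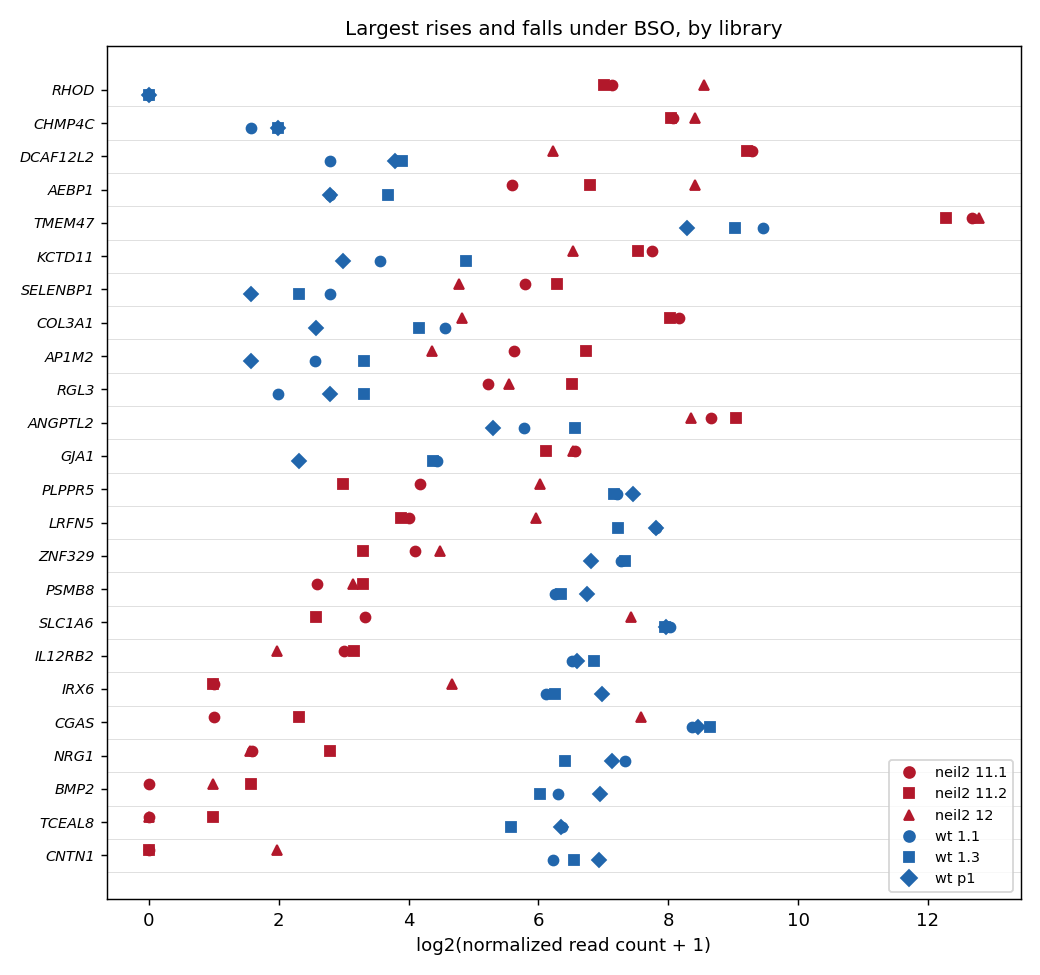
log2(normalized read count + 1) of the 12 largest rises and 12 largest falls in each BSO library (red neil2, blue wt). The groups do not overlap for any of these genes, as the rule that chose them requires, and neil2 rep12 lies near wt for CGAS and SLC1A6.

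To see whether a difference belonged to BSO, the same genotypes were compared in media, with libraries of their own, and the BSO response of neil2 was tested against that of wt. In media 679 genes were higher in neil2 (4.74%) and 892 lower (6.22%), 11% in either direction. Of these calls 43.2% were higher, and with libraries scaled to equal totals 32.6% were. Of the genes higher under BSO 277 were also higher in media (26.2% of those under BSO, 40.8% of those in media). Of those lower under BSO 449 were also lower in media (37.2% and 50.3%), while 2 were higher under BSO and lower in media and 2 the reverse. Tested without pairing, no gene passed in the limma fit for a different BSO response, 0 of 14331 (1468 genes at an unadjusted p under 0.05, 2 adjusted calls with edgeR and 22 with DESeq2). BSO and media libraries of the same name deviated together (correlation 0.558 to 0.849 in neil2 and 0.193 to 0.333 in wt). With the library name as a block 749 genes had a more positive response in neil2 than in wt (5.23%) and 741 a more negative response (5.17%), 10.4% in either direction.

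Those blocked calls followed GC content closely. In the lowest GC tercile 598 were positive and 8 negative, and in the highest 13 were positive and 619 negative. With the GC and length trend removed and the block kept, 143 calls stayed, 51 positive and 92 negative. SLC1A5 was among them: its response in neil2 minus that in wt was -0.44 as deposited (limma adjusted p = 0.000213) and -0.30 with the trend removed (limma adjusted p = 0.00902). For NQO1 the same values were -0.40 (limma adjusted p = 0.00181) and -0.41 (limma adjusted p = 0.00337). For BCL2L2 they were 0.24 (limma adjusted p = 0.0448) and 0.29 (limma adjusted p = 0.0429). For HMOX1 the blocked difference in response was -0.61 (limma adjusted p = 0.00615), and with the trend removed it was -0.48 and did not pass (limma adjusted p = 0.0683). POR and POLK behaved alike, at -0.32 and 0.46 as deposited (limma adjusted p = 0.000953 and 0.00781) and -0.17 and 0.29 with the trend removed (limma adjusted p = 0.0632 and 0.159). GSTM2, CHMP4C, RHOD, SAT1, VLDLR and PRNP did not pass for a difference in response in the blocked fit, with limma adjusted p of 0.457, 0.763, 0.815, 0.771, 0.789 and 0.621.

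**Figure D5:**
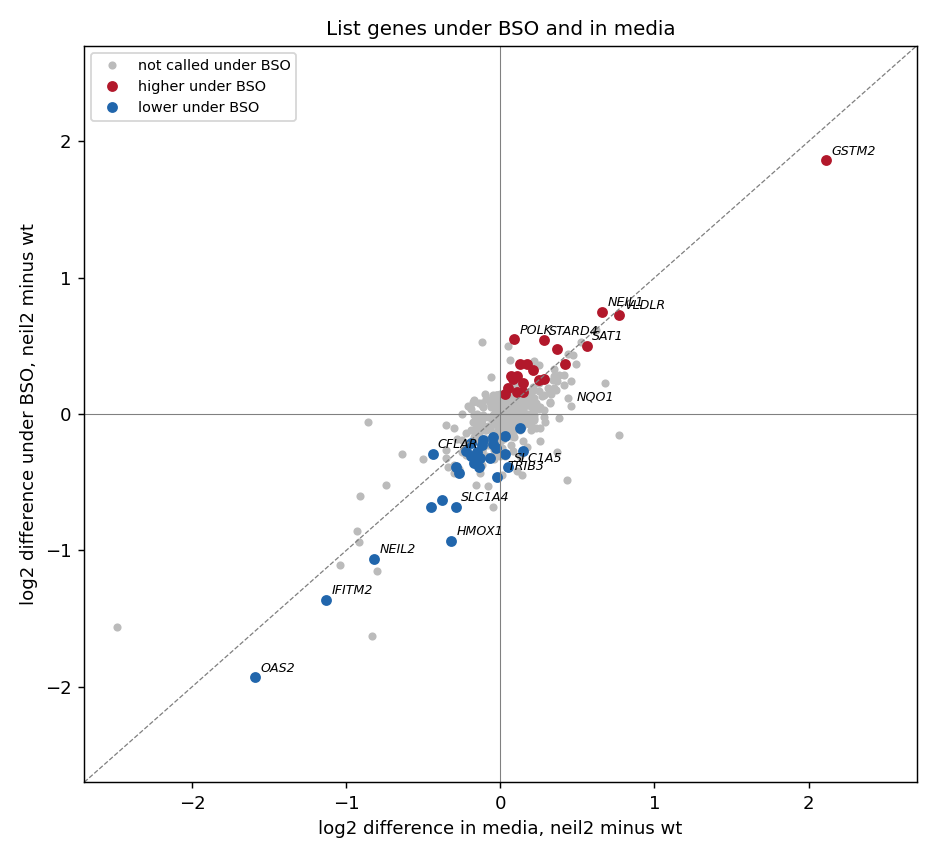
Log2 difference, neil2 minus wt, of each list gene under BSO (vertical) against that in media (horizontal), in red and blue where it passed under BSO, with the diagonal dashed. GSTM2, NEIL1, VLDLR and SAT1 lie near the diagonal, whereas HMOX1, SLC1A5 and POLK lie off it. CGAS lies outside the axes.

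The 5 largest positive and 5 largest negative blocked differences in response lay in genes outside the lists, and 5 of the 10 were no longer called with the trend removed. RN7SL1, a signal recognition particle RNA gene (3.02), had 15.5, 10.7 and 10.6 in neil2 media and 187, 152 and 16.5 in wt media, against 12.8 to 15.6 in neil2 BSO and 6.88 to 14.9 in wt BSO, so 2 wt media libraries stood far above the other 10. MTND4P12, a pseudogene copy of a mitochondrial gene (-2.37), had 770.1, 161 and 103 in neil2 BSO and 344, 139.7 and 639.8 in wt BSO, against 602, 499 and 104 in neil2 media and 89.2, 78.1 and 75.8 in wt media. The groups overlapped under BSO and were separate in media, where neil2 was higher (1.95, limma adjusted p = 0.0228). Reads of it may be shared with the mitochondrial original. FAIM2, an inhibitor of Fas-driven death, had 20.1, 27.6 and 14.6 in neil2 BSO and 61.9, 94.2 and 78.2 in wt BSO, against 32.9, 30.3 and 38.7 in neil2 media and 54.6, 52.7 and 68.0 in wt media, a difference in response of -1.12 (limma adjusted p = 0.0253) that did not pass with the trend removed (-1.03, limma adjusted p = 0.104). C1RL.AS1, CCDC144A, RGPD8 and PRORSD1P were positive (0.90 to 1.18), and GPR1, PTPRN2 and PEX11G negative (-1.06 to -0.83). Of these, CCDC144A, PRORSD1P, PTPRN2 and PEX11G did not pass with the trend removed, and C1RL.AS1, RGPD8 and GPR1 did, as did RN7SL1 and MTND4P12. PTPRN2 had 0, 0 and 351 in neil2 and 301, 322 and 409 in wt under BSO, another gene silent in neil2 rep11.1 and rep11.2 and read in neil2 rep12. In media it had 2.91, 0.977 and 294.0 in neil2 and 335.5, 286.1 and 366.5 in wt. Its response in neil2 rep11.1 and rep11.2 therefore depends on the 1 added before taking the logarithm.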

How the data were processed

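Gene expression was measured by RNA-seq in 42 libraries of 5 HAP1 genotypes, with and without BSO, and the 6 neil2 and unlettered wt BSO libraries were compared, beside their 6 media partners. The deposited values were normalized read counts per gene, a signal that the authors made by dividing counts by size factors. Per the submitters' processing notes, reads were handled with Trim Galore, HISAT2, SAMtools, featureCounts and DESeq2 on GRCh38 (hg38). No source used here gives their versions or the strand setting, so overlapping and antisense genes and near-identical copies may share reads. Dividing by the smallest step gave whole reads for 100% of values (relative tolerance 1e-06), 26.8 M to 30.7 M (mega) per library. Entries without a symbol (9667 of 30182, 0.868% to 1.254% of reads) were left out, and so were named genes with a mean under 10 over all libraries.

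Values were tested with limma 3.58.1 (R 4.3.3) on log2(value + 1) with an intensity trend. The fit held all 42 libraries and 12 group terms, and the pseudocount of 1 understates the change of low genes. Benjamini-Hochberg adjustment ran over all 14331 genes, with calls under 0.05. Members, gene lists and alternatives were chosen with earlier results of these data known. The text names NEIL1 to NEIL3, the 12 largest rises and falls (no overlap between groups, mean at least 50 where higher), up to 6 called genes of each list, a fixed set of stress genes and the 5 largest blocked differences in response each way. Some genes that count in the totals are not reported here. VDAC3 and the genes in the closing section were added after their values were seen. BSO and media libraries of the same name were treated as pairs for the response, because every pair correlated above 0.1 in its deviations and best with its own name. Neil2 and wt share no names, so their direct comparison has no pairing. Trends in GC content and length of the longest transcript (GENCODE v29) were removed as natural splines with 4 degrees of freedom, for 14033 genes, an alternative added after seeing the data. edgeR 4.0.16 and DESeq2 1.42.0 on the recovered reads were alternatives. The fits were also run on simulated counts drawn independently for each library. Those counts held no effect of clone or library name, so they do not check the calls against such effects.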

Additional observations from a re-analysis of the deposited data

Results flagged for a closer look

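With BSO and media libraries of the same name taken as pairs, the response to BSO was called different between neil2 and wt at 1490 genes. This difference itself is what marks the results here. Without pairing no gene passed in the limma fit (0 of 14331). With the pairing kept and the GC and length trend removed, 143 genes passed. Among genes named in the report the response in neil2 minus that in wt was more positive for CGAS (0.50), POLK (0.46), STARD4 (0.26) and BCL2L2 (0.24). It was more negative for HMOX1 (-0.61), TRIB3 (-0.46), SLC1A5 (-0.44), BBC3 (-0.44), CTSD (-0.41), NQO1 (-0.40) and POR (-0.32), and for GPX3 (-0.25), QARS1 (-0.24), GPX4 (-0.23), ATF4 (-0.23) and LONP1 (-0.22). With the GC and length trend removed and the pairing kept, SLC1A5, NQO1 and BCL2L2 of these passed. TRIB3, GPX4, NQO1 and ATF4 passed for the difference in response while their direct comparison under BSO did not. CGAS was near absent in neil2 rep11.1 and rep11.2 under BSO, so its response there depends on the 1 added before taking the logarithm.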

How the results depend on the processing

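Under BSO, the 1058 genes higher and 1208 lower became 579 and 700 with only the compared libraries in the fit, and 624 and 664 with the 18 unlettered libraries. With neil2 rep12 as the lone neil2 library they were 31 and 86, and 27 and 69 with the GC trend removed as well. The lower count was 768 with 1 mean per line number (neil2 rep11.1 and rep11.2 averaged as 11) and 693 with the GC trend removed. Leaving out 1 library gave 402 to 1294 higher and 430 to 1455 lower: 402 and 430 without neil2 rep11.2, 489 and 533 without wt p1, 540 and 688 without rep11.1, and 698 higher without wt 1.1. The 1571 calls in media were 892, 378 and 163 under the first 3 of these settings, 1016 with the line number as a random block, 144 without rep11.1, rep11.2 and the GC trend, and 387 to 1829 with 1 library left out (387 without neil2 rep11.2, 462 without wt 1.1, 933 without wt 1.3, 970 without neil2 rep11.1). For the response the 0 calls were 2 with edgeR, 22 with DESeq2, 4 with the line number as a random block, 2 without rep11.1 and rep11.2 and 4 when the GC trend was removed as well. The replicate block gave 1490, and the replicate block with the GC and length trend removed 143. With 1 library left out the range was 0 to 401, the highest without wt media p1, with 3 without neil2 media rep11.1. With neil2 rep12 as the lone neil2 library the sign turned for CFLAR (0.01), and with the GC trend also removed for LONP1 (0.05), LIG1 (0.03), ACSL4 (-0.03) and IDI1 (-0.06). The cause was not tested.

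The share of calls under BSO that were higher was 46.7%, against 43.7% with equal totals, 44.6% with TMM factors and 54.2% with DESeq2. Of the 73 named genes that passed, 54 also passed with the GC trend removed, 33 whichever library was left out, and 7 with neil2 rep12 alone. With 1 mean per line number, 52 of the 73 passed. That fit averaged neil2 rep11.1 and rep11.2 but kept wt 1.1 and wt 1.3 apart, whose names also share a number. Precision is lowest for genes with few reads.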

Other observations

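Several genes outside the lists, chosen after their values were seen, were also lower in neil2 BSO cells. PAX6, a homeobox factor of eye and brain, had 53.3, 54.3 and 138 in neil2 and 247, 239 and 291 in wt (log2 difference -1.79 ± 0.37, limma adjusted p = 0.00178), and CDX2, a homeobox factor of the gut, had 126, 87.9 and 250.5 in neil2 and 417, 358 and 434 in wt (log2 difference -1.51 ± 0.30, limma adjusted p = 0.00131). DLK1, a Notch ligand relative, had 30.2, 35.5 and 34.1 in neil2 and 74.7, 169.5 and 135 in wt (log2 difference -1.82 ± 0.46, limma adjusted p = 0.00756). CCND2, cyclin D2, had 116, 228 and 270.0 in neil2 and 466, 732 and 580.4 in wt (log2 difference -1.59 ± 0.27, limma adjusted p = 0.000299). In all 4 genes every neil2 library lay below every wt library, and the calls held in each fit that left out 1 library. KCNC1, a potassium channel, MAPT, the microtubule protein tau, and INA, a neuronal filament protein, were lower too, with log2 differences of -1.14, -0.67 and -0.82 (limma adjusted p = 0.000542, 0.000583 and 0.000156), whereas NES, an intermediate filament of neural progenitors, did not pass (0.62, limma adjusted p = 0.121).

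Other genes chosen in the same way were higher. TPM2, a tropomyosin, had 736, 1191 and 215 in neil2 and 105, 132 and 115 in wt (log2 difference 2.29 ± 0.42, limma adjusted p = 0.000616), and SEMA3C, a secreted semaphorin, had 216, 169.8 and 33.1 in neil2 and 31.5, 14.9 and 14.9 in wt (log2 difference 2.43 ± 0.45, limma adjusted p = 0.000729). ATM, the kinase that reports DNA breaks, had 1126, 1388 and 1062 in neil2 and 716, 818 and 896 in wt (log2 difference 0.55 ± 0.11, limma adjusted p = 0.0018). These calls of TPM2, SEMA3C and ATM also held in each fit that left out 1 library. With neil2 rep12 as the lone neil2 library neither these 3 genes nor PAX6, CDX2, DLK1 and CCND2 passed. KRT8, an epithelial keratin, had 4919, 6638 and 2899.8 in neil2 and 1148, 1784 and 763 in wt (log2 difference 1.97 ± 0.68, limma adjusted p = 0.0439), a call that did not hold in every fit that left out 1 library. SLC7A3, a carrier of arginine and lysine like SLC7A1, had 5369, 6247 and 446 in neil2 and 8759.7, 10938 and 9714 in wt (log2 difference -1.99 ± 0.57, limma adjusted p = 0.016), with neil2 rep12 the lowest of the 6 libraries by far, whereas it held the highest neil2 value of SLC7A1. The SLC7A3 call did not hold in every fit that left out 1 library.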
